A study of Mus musculus with 2 samples.

Results

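Conventional type 1 dendritic cells (cDC1) were examined among live CD45+ cells of the mouse lung. Members were chosen by raw counts of unique molecular identifiers (UMIs, each marking 1 captured RNA molecule). A member held at least 500 genes, at most 10% of its UMIs from mitochondrial genes, at least 2 UMIs of Xcr1 and Clec9a together, under 2 of Fscn1, under 10 of C1qa, C1qb and C1qc together, and at most 1 of Cd3d, Cd3e and Cd3g together. This rule found 71 members among 14179 kept cell barcodes, of 15001 deposited. Library 1 held 48 members of 8066 kept barcodes (0.595%, exact 95% interval 0.439 to 0.788%), and library 2 held 23 of 6113 (0.376%, 0.239 to 0.564%).

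The study has 1 WT sample and 1 Siah1a/2 KO sample, both lung CD45+ cells taken 7 weeks after a first dose of urethane, a chemical carcinogen that gives lung tumours in mice. Siah1a and Siah2 are ubiquitin ligases, which tag proteins for degradation. The labels do not state the strain, age or number of animals, or where and when the ligase genes were deleted. The deposited matrix joins both samples under 2 barcode suffixes, called library 1 and library 2 here, and nothing in the sources ties a suffix to a genotype, so no value below is a WT or KO value.

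cDC1 are antigen-presenting cells that depend on the transcription factors Irf8, Batf3 and Id2. They take up material from dying cells, which the receptor Clec9a recognises, and present its peptides on MHC class I to CD8 T cells, a process called cross-presentation. Xcr1 is the receptor for the chemokine Xcl1 that T and NK cells release, and in the lung cDC1 carry antigen to the draining lymph node.

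The members were deep barcodes. Their median was 20343.5 UMIs in library 1 (range 1034 to 50981) and 14614 in library 2 (range 809 to 39606), with medians of 4035 and 3517 genes. Their UMIs summed to 1020187 and 365390, so a count of 0 allows a level of up to 2.94 CPM (UMIs of a gene for every 1000000 UMIs of the sum) in library 1 and 8.21 in library 2, on a floor of 3 counts. Levels come from summed UMIs and ratios are log2 with 0.5 UMI added to each sum. The 95% intervals are exact and reflect counting error alone. Cells of 1 library are not replicates, so no difference has a replicate check and no test was run. Genes were measured with at least 50 UMIs in the 2 sums compared, and a gene is counted as higher or lower when the sums differ at least 2 times. No barcode sequence of a member occurs in both libraries, and 11 do among all barcodes.

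A pair of other dendritic groups of the same libraries serve for comparison. Cd209a dendritic cells (DCs) hold at least 2 UMIs of Cd209a, a lectin of type 2 conventional DCs, and number 96 and 77 barcodes with median UMIs of 11171 and 10987. Cd209a is the only gene they were asked to hold, so other cells can be among them. A list of monocyte genes summed to 5180 and 4451 CPM in them, against 5001 and 6164 in C1q macrophages (C1q sum at least 10). A list of plasmacytoid DC genes reached 13586 and 22107 CPM in single barcodes. The make-up of the group was not tested. Fscn1 DCs hold at least 2 UMIs of Fscn1, an actin bundler of mature migratory DCs, and at least 1 of Ccr7, and number 57 and 50 barcodes with median UMIs of 12517 and 11700.5. Of the barcodes in the 3 dendritic groups, cDC1 made up 23.9% in library 1 (18.2 to 30.4%) and 15.3% in library 2 (9.98 to 22.1%).

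The genes of the rule are given as a description. In library 1, 41 members held both Xcr1 and Clec9a, 4 held Xcr1 alone and 3 Clec9a alone, and in library 2 the numbers were 10, 3 and 10. The median sum of the pair was 11 UMIs in library 1 and 3 in library 2, so more members of library 2 lay close to the limit. Xcr1 (chr9:123852315-123862029, minus strand, GRCm38) stood at 458 and 208 CPM and Clec9a (chr6:129408862-129424763, plus strand) at 193 and 194 CPM.

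The label was checked with Naaa and Wdfy4, which the rule did not use. Naaa (chr5:92257659-92278170, minus strand), a lysosomal lipid amidase, stood at 1183 CPM (1117 to 1252) in library 1 and 961 CPM (863 to 1067) in library 2. In Cd209a DCs it stood at 186 and 416 CPM, and in Fscn1 DCs at 14.1 and 85.2 CPM. In library 2, 1 Fscn1 DC barcode held 1766 CPM of Naaa. The Fscn1 DCs were chosen without a limit on Xcr1 and Clec9a, so barcodes with these receptors can be among them. The log2 ratio of Naaa over Cd209a DCs was 2.67 in library 1 and 1.21 in library 2. Both libraries therefore hold Naaa at its highest in the cDC1 group among these 3. Wdfy4 (chr14:32959547-33185508, minus strand), which is needed for cross-presentation of cell-associated antigen, stood at 419 CPM (380 to 460) and 317 CPM (262 to 381). Cd209a DCs held 69.2 and 59.4 CPM of it, which is a log2 ratio of 2.59 and 2.41. With each barcode thinned to 3000 UMIs, Wdfy4 was seen in 72.3% of cDC1 in library 1 and 45.0% in library 2, against 0.955% and 0.864% of T cell barcodes, which serve as the level of free RNA. Naaa was seen in 85.1% and 70.0% of thinned cDC1, against 3.88% and 4.36% of T cells.

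**Figure D1:**
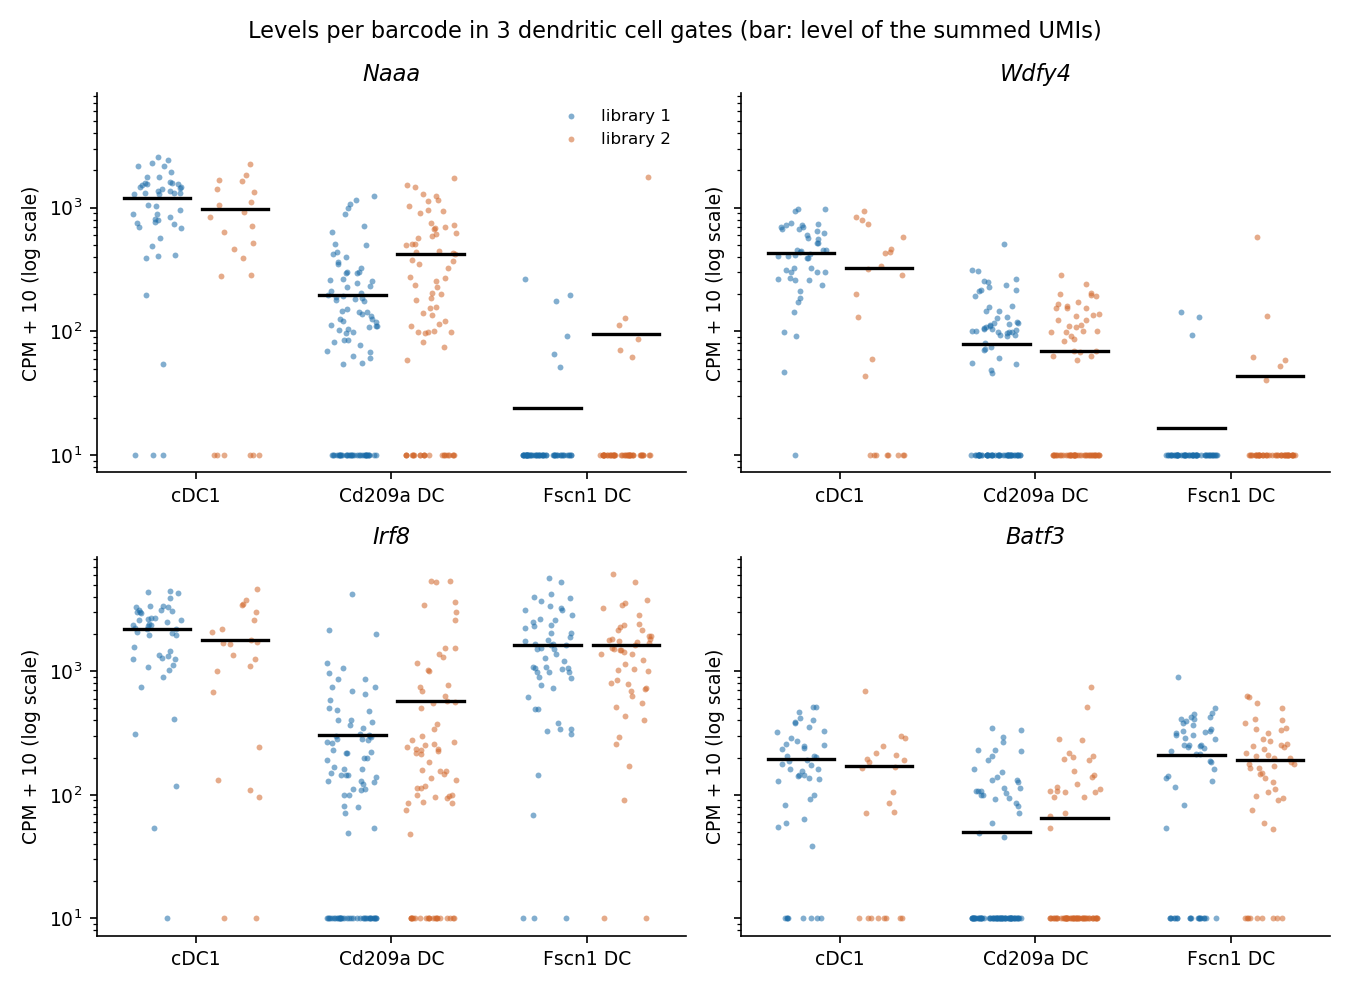
Level per barcode of Naaa, Wdfy4, Irf8 and Batf3 (CPM with 10 added, log axis) in cDC1, Cd209a DCs and Fscn1 DCs of each library; bars are the level of the summed UMIs, and points at 10 hold no UMI. Naaa and Wdfy4 stand highest in cDC1, while Irf8 and Batf3 are shared with Fscn1 DCs.

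The label did not hold for every member. Naaa and Wdfy4 were both present in 45 of 48 members of library 1 and 15 of 23 of library 2, which is 60 of 71. Of the 11 others, 4 held 9 to 31 UMIs of Siglech, a lectin of plasmacytoid DCs, and 1 of those 4 also held 13 UMIs of Cd209a. A further 2 held 27 and 4 UMIs of Cd209a, and 1 held 17 of Ccr7, the receptor that guides mature DCs to lymph nodes. The last 4 were shallow, with 809 to 1101 UMIs. Present here means at least 1 UMI of each gene, which some Cd209a DCs also reached. Among the 60, 1 member of library 1 held no Irf8 in 15988 UMIs. Others held little, such as 1 of library 1 at 44.1 CPM and 1 of library 2 at 98.6 CPM. At the limits of the rule, the 61 barcodes with a pair sum of 1 held Naaa in 26 and Wdfy4 in 24, and the 14 members with a sum of 2 held them in 9 and 8. All 47 members with a sum of at least 4 held both. The 5 barcodes left out by the C1q limit alone all held both too, and of the 9 left out by Fscn1 alone 2 held Naaa and 3 Wdfy4. The Cd3 limit alone left out 5 barcodes with a sum of 2, of which 4 held Naaa and 5 Wdfy4, and 14 with a sum of 3 or more, of which 13 held Naaa and 10 Wdfy4.

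Against Cd209a DCs, the cDC1 identity genes stood out in both libraries. Of 3691 genes measured, 93 were at least 2 times higher in cDC1 in each library (2.52%) and 166 at least 2 times lower (4.5%). The identity list holds 30 genes, of which 11 passed the UMI minimum, and 9 of these 11 were higher and 0 lower. Its median log2 ratio was 2.67 in library 1 and 1.65 in library 2, against −0.08 and 0.00 over all genes measured. The members and the list were chosen with these cells in view, so this is a description of the group.

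The list holds the transcription factors of the lineage. Irf8, which directs the lineage, stood at 2194 and 1776 CPM in cDC1 against 295 and 565 in Cd209a DCs. Batf3, which keeps Irf8 on in committed cells, stood at 186 and 161 CPM against 40.4 and 55.3. Id2, which blocks E proteins that drive the plasmacytoid fate, stood at 1076 and 1097 CPM against 166 and 343. None of the 3 separated cDC1 from Fscn1 DCs, which held 1628 and 1603 CPM of Irf8, 201 and 181 of Batf3, and 1294 and 1547 of Id2. In the other direction, Zeb2, a repressor of the cDC1 fate, stood at 18.6 and 90.3 CPM against 241 and 282 in Cd209a DCs, and Cebpb, a myeloid factor, at 26.5 and 145 CPM against 255 and 315. Over the list of 19 measured DC transcription factors, 3 were higher and 2 lower than in Cd209a DCs, against 2.52% and 4.5% of all genes.

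Several surface and endosomal genes of cDC1 were also higher. Cd24a, a surface glycoprotein of the lineage, stood at 472 and 408 CPM against 34.6 and 59.4 in Cd209a DCs, log2 ratios of 3.76 and 2.77. Rab7b, a small GTPase of late endosomes, stood at 353 and 350 CPM against 29.7 and 57.3. Ppt1, a lysosomal thioesterase, stood at 777 and 430 CPM against 83.2 and 73.7. All 3 were also at least 2 times above Fscn1 DCs in both libraries, where Rab7b was at 7.68 and 13.2 CPM. Itgae (CD103), the integrin chain that binds E-cadherin on epithelium, had 225 CPM in library 1 and 65.7 in library 2, with 0 and 6.14 CPM in Cd209a DCs. Tlr3, the endosomal sensor of double-stranded RNA, stood at 170 and 115 CPM, against 5.77 and 6.14 in Cd209a DCs and 1.28 and 0 in Fscn1 DCs. Flt3, the receptor for the growth factor that sustains DCs, stood at 106 and 126 CPM against 39.5 and 53.2 in Cd209a DCs. Btla, an inhibitory receptor, stood at 98.0 and 79.4 CPM against 21.4 and 26.6.

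**Figure D2:**
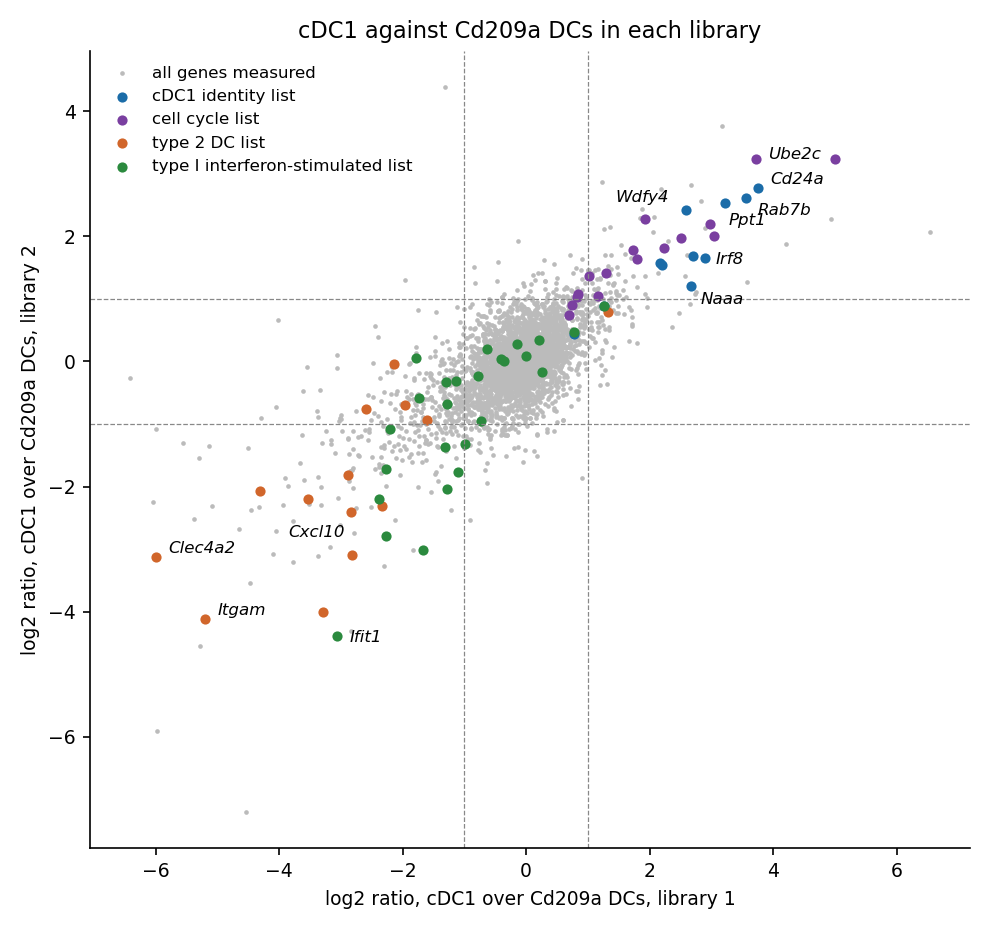
Log2 ratio of cDC1 over Cd209a DCs for each measured gene, library 1 on the x axis and library 2 on the y axis; colours mark gene lists and dashed lines the limits at 1 and −1. Identity and cell cycle genes lie at the upper right, and type 2 DC genes at the lower left.

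Genes for engulfing dying cells were few but present. Of 5 measured genes of that list, Havcr2 and Rab7b were higher than in Cd209a DCs and none was lower. Over all genes, 2.52% were higher and 4.5% lower. Havcr2 (TIM-3), a receptor for phosphatidylserine and other ligands, stood at 120 and 95.8 CPM against 46.1 and 21.5. Cd36, a scavenger receptor, was under the UMI minimum for this comparison, at 66.7 and 35.6 CPM in cDC1 and 0 and 1.02 in Cd209a DCs. Dnase1l3, a nuclease that clears DNA of dead cells, stood at 99.0 and 38.3 CPM in cDC1 and was at least 2 times lower in library 2. The receptor Mertk had no UMI in either library.

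The machinery of MHC class I differed little between cDC1 and Cd209a DCs. Of 26 measured genes of cross-presentation and MHC class I, 0 were higher and 2 lower, among them Cybb of the phagocyte oxidase, and the median log2 ratio was −0.03 in library 1 and 0.14 in library 2. Over all genes, 2.52% were higher and 4.5% lower than in Cd209a DCs, so these counts are near those shares. Tap1, which pumps peptides into the endoplasmic reticulum, stood at 467 and 411 CPM against 325 and 277. Cybb stood at 50 and 197 CPM against 498 and 490. Against Fscn1 DCs, 3 of 25 were higher and 6 lower. The higher count is near the 12.1% of all genes measured against them, and 14.8% of all genes were lower. The chaperones Calr and Pdia3 were higher, Calr at 691 and 643 CPM against 195 and 238, while the class I chain H2-K1 was lower, at 1138 and 1327 CPM against 3326 and 3648; H2-K1 and H2-D1 are alike in sequence, so the split of their counts is uncertain.

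MHC class II genes stood near the level of Cd209a DCs and above Fscn1 DCs. H2-Ab1, a class II chain, stood at 9168 and 9384 CPM, against 1899 and 1534 in Fscn1 DCs. Cd74, the invariant chain that guides class II molecules, stood at 21829 and 20830 CPM against 9522 and 7356. H2-DMb1, part of the peptide editor, stood at 1064 and 1037 CPM against 44.8 and 52.9. Of 13 measured class II genes, 7 were higher and 1 lower than in Fscn1 DCs, and of 14 measured against Cd209a DCs, 0 were higher and 2 lower. Over all genes, the shares higher and lower were 12.1% and 14.8% against Fscn1 DCs and 2.52% and 4.5% against Cd209a DCs.

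Genes of type 2 DCs, monocytes and macrophages were lower than in Cd209a DCs. Over all genes, 4.5% were lower and 2.52% higher. Of 14 measured type 2 DC genes, 9 were lower and 0 higher, with median log2 ratios of −2.82 and −2.13. Itgam (CD11b), an integrin chain that marks type 2 DCs, stood at 2.94 and 5.47 CPM against 126 and 118. Sirpa, an inhibitory receptor that binds CD47, stood at 10.8 and 30.1 CPM against 130 and 143. Of 8 measured monocyte genes 5 were lower and 0 higher, among them Ccr2, the receptor that brings monocytes into tissue, at 50 and 68.4 CPM against 457 and 545. Of 5 measured macrophage genes 3 were lower and 0 higher, with Csf1r, the growth factor receptor of macrophages, at 15.7 and 24.6 CPM against 119 and 91.1. The lowest ratios by the naming rule included Ccl9, a chemokine, at 4.90 and 8.21 CPM against 210 and 224, and Capg, an actin capping protein, at 24.5 and 43.8 CPM against 427 and 380.

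Against Fscn1 DCs, 352 of 2906 measured genes were higher in cDC1 in each library (12.1%) and 431 lower (14.8%). All 23 measured genes of the migratory mature DC list were lower, with median log2 ratios of −4.89 and −3.38, against 0.05 and 0.07 over all genes. Fabp5, a fatty acid binding protein, stood at 17.6 and 43.8 CPM against 2041 and 1850. Socs2, an inhibitor of cytokine signalling, stood at 0.98 and 19.2 CPM against 658 and 673. Cd70, a co-stimulatory ligand, had no UMI in cDC1. The highest ratio belonged to Ckb, a creatine kinase, in cDC1 at 1171 and 725 CPM against 7.68 and 17.6, and Marchf1, a ubiquitin ligase that removes class II molecules from the surface, stood at 139 and 129 CPM against 1.28 and 4.41. Of 11 measured identity genes 7 were higher than in Fscn1 DCs and 1, the uptake receptor Ly75 (DEC-205), was lower, at 51.0 and 62.9 CPM against 214 and 260.

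Co-stimulatory genes placed cDC1 below mature DCs. Of 11 measured, 1 was higher and 9 lower than in Fscn1 DCs, against 12.1% and 14.8% of all genes. Cd83, a stabiliser of class II molecules and Cd86, stood at 368 and 391 CPM against 1434 and 1199, and Cd274 (PD-L1), a ligand of the T cell brake PD-1, at 24.5 and 73.9 CPM against 444 and 413. Cd40, the receptor for T cell help, stood at 53.9 and 62.9 CPM against 375 and 235. Cd86 itself stood at 234 and 200 CPM against 411 and 344, which is under 2 times.

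Most cytokine and chemokine genes were lower than in mature DCs as well. Il12b, the shared chain of interleukin-12 and interleukin-23, had 22 UMIs in library 1 and 2 in library 2, in each case in 1 barcode, which is 21.6 and 5.47 CPM against 552 and 783 in Fscn1 DCs. Ccl5, a T cell attractant, stood at 77.4 and 394 CPM against 10635 and 8914, and 64.6% and 93.1% of its cDC1 UMIs lay in 1 barcode. Cxcl9, which attracts Cxcr3-bearing T cells, was higher than in Fscn1 DCs, at 533 and 317 CPM against 110 and 45.5, and close to Cd209a DCs at 544 and 259. Cxcl10, a related ligand, was lower than in Cd209a DCs, at 98.0 and 167 CPM against 1634 and 1100. Of 12 measured genes of the list, 2 were higher and 7 lower than in Fscn1 DCs, against 12.1% and 14.8% of all genes.

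Transcripts of dividing cells stood higher in cDC1 than in Cd209a DCs. Mki67, a protein of dividing nuclei, stood at 132 and 175 CPM against 16.5 and 37.9 in Cd209a DCs. Top2a, which untangles replicated DNA, stood at 180 and 203 CPM against 21.4 and 50.2. Of 16 measured cell cycle genes, 12 were higher than in Cd209a DCs and 0 lower, against 2.52% and 4.5% of all genes. The median log2 ratios of the list were 1.76 and 1.71. Of 11 measured against Fscn1 DCs, 9 were higher and 0 lower, where 12.1% and 14.8% of all genes were. Summed over the list, the median cDC1 barcode held 1161 and 1694 CPM. The medians were 1016 and 1028 CPM in Cd209a DCs, and higher, at 1583 and 2078 CPM, in Fscn1 DCs. In library 2, 1 cDC1 barcode held 26.6% of the UMIs of the list. At least 2 UMIs of Mki67 and Top2a together were found in 12 of 48 members of library 1 (25%, 13.6 to 39.6%) and 12 of 23 of library 2 (52.2%, 30.6 to 73.2%).

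These barcodes were also the deeper ones, with median UMIs of 29283 against 18559.5 in the rest of library 1 and 19736.5 against 11575 in library 2. At 3000 UMIs each, 9 of 47 cDC1 of library 1 (19.1%, 9.15 to 33.3%) and 7 of 20 of library 2 (35.0%, 15.4 to 59.2%) held a UMI of Mki67 or Top2a. The intervals of the libraries overlap. The thinned shares were 4.26% (1.17 to 10.5%) and 5.19% (1.43 to 12.8%) in Cd209a DCs, 7.27% (2.02 to 17.6%) and 2.00% (0.0506 to 10.6%) in Fscn1 DCs, and 23.1% and 19.0% in T cells. In library 1 the interval of cDC1 overlaps those of both other dendritic groups, and in library 2 it lies above them. In library 2, 80.2% of the UMIs of Ube2c and 92.5% of those of Cenpf, both mitotic genes, came from 1 barcode.

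**Figure D3:**
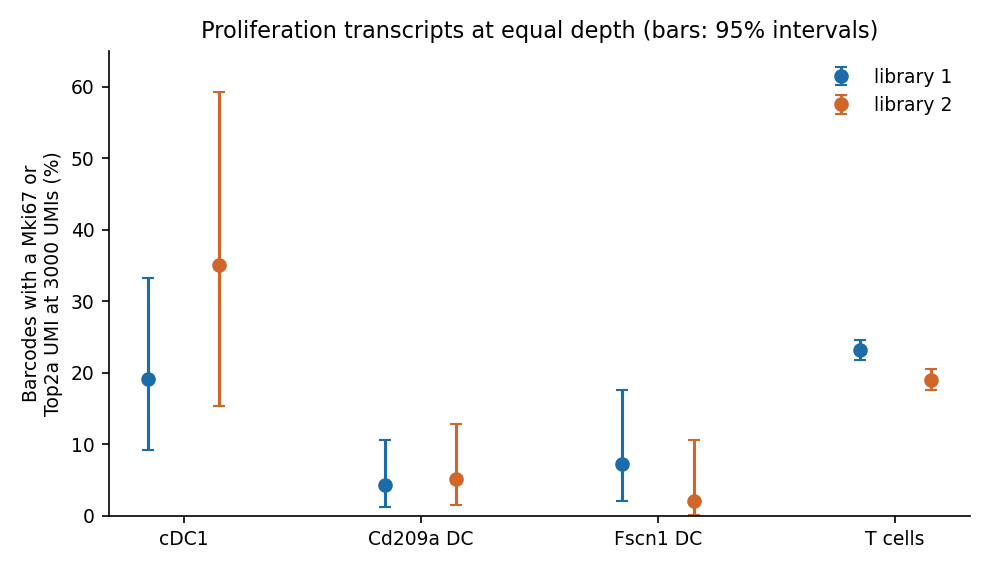
Share of barcodes with a UMI of Mki67 or Top2a after thinning to 3000 UMIs (percent, y axis) by group and library, with exact 95% intervals. cDC1 stand at 19.1% and 35.0%, with an interval that overlaps those of the other dendritic groups in library 1.

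Leaving out these barcodes reduced the genes higher than in Cd209a DCs from 93 to 24, of which 19 were among the 93. The cell cycle genes among them were lost by construction, since these barcodes were chosen by Mki67 and Top2a, and only 4 were still measured. Of 10 measured identity genes, 6 were still higher.

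Part of the interferon-stimulated genes differed between the libraries. Between the libraries, 150 of 3613 genes measured in cDC1 were at least 2 times higher in library 2 (4.15%) and 78 lower (2.16%), and the median over all was 0.08. That balance turned to 59 higher and 134 lower when each gene's highest barcode was left out. A barcode weighs more among 23 members of library 2 than among 48 of library 1, so this step alone can lower library 2. Of 21 measured type I interferon-stimulated genes, 7 were lower in library 2 (Isg15, Ifit2, Ifit3, Ifi213, Oasl1, Ifi27l2a and Isg20) and 0 higher, with a median of −0.34. The products of several of these genes act against viruses, and Isg15, a ubiquitin-like modifier, is among the most abundant.

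Isg15 had 864 CPM in library 1 against 400 in library 2, and its log2 ratio was −1.11 (−1.37 to −0.86). Per barcode, its level ran from 0 through a median of 271 to 8866 CPM in library 1, and from 0 through 98.6 to 1580 CPM in library 2. The barcodes of the libraries thus overlapped widely, and thinned to 3000 UMIs a UMI of Isg15 was found in 46.8% and 50% of them. Ifit3, an antiviral protein, stood at 115 and 49.3 CPM. Ifit2, a related gene, stood at 184 and 52.0 CPM, and 78.9% of its UMIs in library 2 lay in 1 barcode. Ifi27l2a stood at 728 and 276 CPM. Ifit3 and Ifi213 have close copies in the list (Ifit3b, and Ifi206 and Ifi208), so the split of their counts is uncertain. Irf7, the factor that amplifies interferon production, was within 2 times, at 834 and 534 CPM. Summed over the list, single barcodes ran from 850 through a median of 4281 to 31859 CPM in library 1, and from 673 through 3018 to 15232 CPM in library 2.

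Promoters are printed for the 3 lower genes that hold the core of the interferon-stimulated response element, since such elements are the known binding sites of the factors that interferon activates. Each is the 150 bases just before the RefSeq start (GRCm38.p6), 5′ to 3′ on the gene's strand, and capitals mark GAAANNGAAA, or TTTCNNTTTC where the match is on the other strand. The windows lie at chr4:156200819-156200968 (minus strand), chr19:34583379-34583528 (plus strand) and chr1:173599273-173599422 (minus strand).
Isg15: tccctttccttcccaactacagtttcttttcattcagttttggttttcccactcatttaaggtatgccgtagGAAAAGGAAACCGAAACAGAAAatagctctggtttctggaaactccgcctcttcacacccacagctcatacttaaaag
Ifit3: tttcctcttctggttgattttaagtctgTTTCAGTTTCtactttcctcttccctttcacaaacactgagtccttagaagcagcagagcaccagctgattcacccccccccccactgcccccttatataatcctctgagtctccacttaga
Ifi213: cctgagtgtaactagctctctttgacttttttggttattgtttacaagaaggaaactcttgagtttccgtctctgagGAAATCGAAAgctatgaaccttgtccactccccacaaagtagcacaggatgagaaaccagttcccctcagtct
The Isg15 run joins 3 overlapping matches, the nearest 57 bases before the start, while the nearest match in Ifit3 lies 113 bases and in Ifi213 64 bases before it. Searched on both strands over 250 bases, the motif was found in 13 of the 25 list genes with a RefSeq promoter (52%), against 978 of 32851 promoters (2.98%). It was in 3 of the 6 lower genes with a RefSeq promoter and in 10 of the 19 others, so its share was about equal in both. Ifit2, Oasl1 and Isg20, which were also lower in library 2, have no match in that window, and Ifi27l2a has no entry in the promoter table. A match is a description of letters, and binding was not measured.

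Lower levels in library 2 were also counted in the other dendritic groups, for partly other genes of the list. Among list genes that passed the UMI minimum both in cDC1 and in the group compared, 6 of 21 were lower in library 2 in Cd209a DCs (median −0.77) and 9 of 19 in Fscn1 DCs (median −0.86). Ifit3 and Ifi27l2a were lower in all 3 groups. With the minimum applied in each group alone, 9 of 29 were lower in Cd209a DCs, 9 of 20 in Fscn1 DCs, and none was higher in either. Over all genes measured in cDC1 and in the group compared, 0.864% were lower in library 2 in Cd209a DCs and 1.84% in Fscn1 DCs, with 1.01% and 1.21% higher. Isg15 stood at 1426 and 776 CPM in Cd209a DCs, which is within 2 times, and at 1816 and 623 CPM in Fscn1 DCs. In C1q macrophages and in T cells, 0 of the 21 list genes measured in cDC1 were lower or higher, with medians of −0.03 and 0.02, and Isg15 stood at 1631 and 1433 CPM in the former and 720 and 730 CPM in the latter. With the minimum applied there alone, all 30 list genes were measured: Oas1a was lower in both groups, at 54.1 and 22.4 CPM in macrophages and 24.3 and 8.18 in T cells, Ifi208 was higher in both, at 1.75 and 52.6 CPM and 20.2 and 102 CPM, and Ifi206 was higher in macrophages. Of all genes measured in cDC1 too, the share higher and lower in library 2 was 0.252% and 0.419% in macrophages and 0.5% and 0.222% in T cells. These groups hold more barcodes, 718 and 408 macrophages and 3896 and 3051 T cells. The difference between groups was not tested, and the libraries may differ in genotype, animal or handling, which cannot be told apart.

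**Figure D4:**
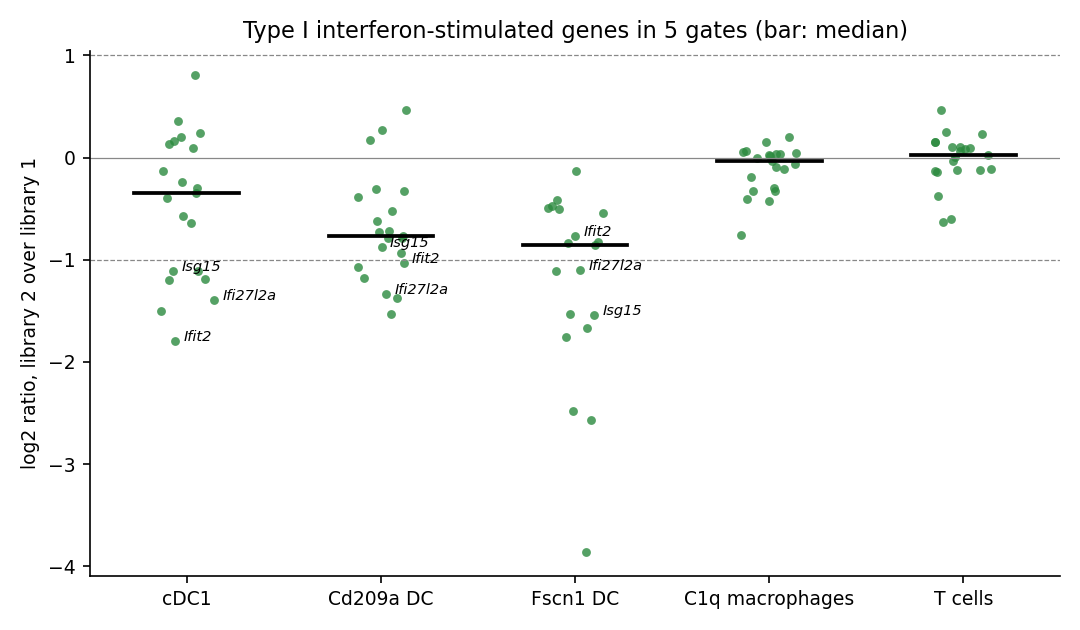
Log2 ratio of library 2 over library 1 for each type I interferon-stimulated gene measured in cDC1 and in the group shown, in 5 groups of barcodes; each point is a gene and bars mark the median. The medians of the 3 dendritic groups lie below 0 (−0.34, −0.77 and −0.86), and those of macrophages and T cells lie near it; dashed lines mark 1 and −1.

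Against Cd209a DCs of the same library, cDC1 held less interferon-stimulated RNA. Over all genes, 4.5% were lower than in Cd209a DCs and 2.52% higher. Of 26 measured genes of the list, 9 were lower and 0 higher, with median log2 ratios of −1.11 in library 1 and −0.46 in library 2. Ifit3 stood at 115 and 49.3 CPM in cDC1 against 602 and 232. Of 17 measured interferon gamma-induced genes, 5 were lower and 0 higher, among them Gbp2, a GTPase that attacks the membranes around microbes, at 56.9 and 120 CPM against 400 and 264.

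The number of lower interferon-stimulated genes in cDC1 changed with who was counted. It was 2 of 20 measured among members with both Xcr1 and Clec9a, with 1 higher, and 3 of 19 without the cycling barcodes, also with 1 higher. It was 3 of 17 with the C1q sum under 3, 8 of 20 among members with Naaa and Wdfy4, 9 of 19 with a Cd3 sum of 0 and 7 of 19 without each gene's highest barcode. The list median stayed below 0 in each of these. Over all genes, those lower in library 2 numbered 82, 166, 44, 83, 52 and 134 in these settings, in the same order, against 78 as reported. The background thus moved with the setting too, and the list counts were not tested against it.

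The count of other differences between the libraries changed with the barcodes counted and the scaling. Besides the turn without each gene's highest barcode, members with Naaa and Wdfy4 gave 92 higher and 83 lower. Scaling by the median of gene ratios gave 122 higher and 100 lower in library 2, so that 55% of the differing genes were higher in place of 65.8%. Of the genes named by rank, Klk1, a kallikrein protease, had 0 and 62 UMIs, and 82.3% of the latter lay in 1 barcode. Siglech stood at 30.4 and 175 CPM and Ccr9, a gut-homing receptor that plasmacytoid DCs also carry, at 30.4 and 183 CPM. Of 6 measured plasmacytoid DC genes, 4 were higher and 0 lower, with a median of 2.08, against 4.15% and 2.16% of all genes. In Cd209a DCs 3 of 6 were also higher in library 2 (median 1.23), and in T cells 3 of 6 (median 0.86), with 0 lower in either. Over all genes, 1.01% were higher in Cd209a DCs and 0.5% in T cells. Among cDC1 members with both Naaa and Wdfy4, which leaves out 4 Siglech-bearing members described above, the list median was −0.26 and Ccr9 had a log2 ratio of −1.05. Ctsl, a lysosomal protease, stood at 26.5 and 246 CPM, with its UMIs of library 2 in 4 barcodes.

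Several single genes were higher in library 2, named by rank or from the lists. Il1b, which encodes the cytokine interleukin-1 beta, had 443 and 1423 CPM, with a log2 ratio of 1.68 (1.5 to 1.87). Its UMIs were found in 30 of 48 and 16 of 23 members, and 39.2% of those in library 2 lay in 1 barcode. Ccl4, an inflammatory chemokine, stood at 105 and 796 CPM, log2 2.92, and Cebpb at 26.5 and 145 CPM, log2 2.44 (1.76 to 3.18). Cd300a, an inhibitory receptor for phosphatidylserine, stood at 32.3 and 227 CPM and was found in 14 members of each library. Klf4, a factor that type 2 DCs and monocytes use, stood at 71.6 and 326 CPM, and Clec7a (Dectin-1), a receptor for fungal glucans, at 57.8 and 274. In Cd209a DCs each of these genes stood above the level of cDC1 in library 1, with Clec7a at 323 and 405 CPM and Cd300a at 343 and 395. Of 9 measured type 2 DC genes, 4 were higher in library 2 and 0 lower, against 1 of 4 measured monocyte genes higher and 2 of 14 interferon gamma-induced genes. Over all genes, 4.15% were higher. The 4 were Cd209a, Klf4, Tnip3 and Il1b. Members without Naaa or Wdfy4 held 13 and 4 of the 23 UMIs of Cd209a in library 2. Among members with both Naaa and Wdfy4 the log2 ratio was 2.66 for Ccl4, 2.81 for Cd300a and 2.06 for Cebpb. That filter asks for 1 UMI of each marker, which some Cd209a DCs also hold, so members of uncertain identity can pass it. With both Xcr1 and Clec9a required, Cd300a stood at 2.90 and Cebpb at 1.93, but Ccl4 at 0.00 (−0.77 to 0.66).

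Identity genes leaned the other way. Of 22 measured, 3 were lower in library 2 and 0 higher, with a median of −0.35, against 2.16% and 4.15% of all genes. The 3 were Itgae, at 225 and 65.7 CPM (log2 −1.75, −2.45 to −1.17), Plpp1, a lipid phosphatase, at 43.1 and 19.2 CPM, and Pianp, a membrane protein, at 53.9 and 19.2 CPM. Itgae was found in 36 of 48 members and in 7 of 23. Naaa and Wdfy4 were both present in 45 of 48 members of library 1 and 15 of 23 of library 2. The sums thus differ in membership, and the part of this in the lower identity genes was not tested. Naaa, Wdfy4 and Irf8 were within 2 times between libraries, with log2 ratios of −0.30 (−0.48 to −0.13), −0.39 (−0.71 to −0.10) and −0.30 (−0.43 to −0.18). The lowest ratios by rank included Nkg7, a cytotoxic granule protein, at 57.8 and 8.21 CPM, and Gzma, a granule protease, of which 81.6% of the UMIs of library 1 lay in 1 barcode.

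Among cDC1 of the same library, both abundant genes and genes of few members spread widely. After thinning, the variance over mean had a median of 1.10 and 0.985 over 3297 genes, near the value of counting error alone. It was highest for Malat1, a nuclear long RNA, at 56.2 and 43.9. Cst3 (cystatin C), a protease inhibitor abundant in cDC1, reached 17.9 and 18.3, on levels of 32940 and 23911 CPM. Ifitm3, an antiviral membrane protein, reached 10.3 and 10.8. Il1b reached 8.36 and 19.2, and Cxcl9 6.51 and 6.23, the latter with a UMI in 14 of 47 and 5 of 20 thinned barcodes. Ccr7 was uneven in the same way: at 83.3 and 76.6 CPM, it had 88.2% and 60.7% of its UMIs in 1 barcode.

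Markers of other cells varied by list, and their part in the results was not tested. The neutrophil list summed to 230 and 83 UMIs, 98.7% and 94.0% of them in 1 barcode of each library. The T cell list summed to 124 and 64 UMIs, and the NK list to 480 and 175, with UMIs in 43 of 48 and 20 of 23 members, Eomes at 0 in library 1 and Klrb1c at 0 in library 2. Of 4 measured NK genes, 3 (Gzma, Gzmb and Nkg7) were lower in library 2. The macrophage list summed to 403 and 164 UMIs, in 46 and 20 members, with Mertk and Pf4 at 0 in both libraries. The monocyte list summed to 1145 and 678 UMIs (1122 and 1856 CPM, against 5180 and 4451 in Cd209a DCs), in 44 and 21 members, with Vcan at 0 in both libraries. The B cell list summed to 78 and 99 UMIs, in 28 and 15 members, most of them Ighm, an antibody heavy chain, with 73 and 58 UMIs, which was higher in library 2 (log2 1.15), while Ms4a1 was at 0 in both. The mast cell and basophil list gave 18 and 5 UMIs, with Cpa3 and Mcpt8 at 0, the list of lung cells outside the immune system 15 and 8, with Sftpc and Col1a1 at 0, and the erythroid list 0 and 1.

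The targeted genes were scarce in these cells. Siah1a had 6 and 2 UMIs (5.88 and 5.47 CPM), Siah2 26 and 12 (25.5 and 32.8 CPM), and the related Siah1b 6 and 1. The deleted parts of the genes are not stated in the labels, and a 3′ tag outside a deleted part checks nothing, so these levels say nothing on which suffix is which genotype.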

How the data were processed

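Live (DAPI-negative) CD45+ lung cells were profiled with the 10x single-cell 3′ kit v3.1, per the labels' protocols. The authors deposited 1 joint matrix of raw UMI counts for both samples, made with Cell Ranger 6.1.2 on mm10, per the submitters' processing notes; the sources used here do not give the gene annotation, intron or strand settings. UMI totals were 86227008 and 59459790.

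The suffix of each barcode defined the library. Counts were summed per group and library and divided by the group's total. Summed counts give deep barcodes more weight, and 1 barcode can carry a gene. Groups were C1q macrophages (C1q sum at least 10), T cells (Cd3 sum at least 2) and the dendritic groups of the report. No doublet caller was run. Shares have exact Clopper-Pearson intervals, levels exact Poisson intervals and ratios exact conditional binomial intervals. The ratio code was tested on simulated data.

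The members and the 30 gene lists (511 of 515 genes present) were chosen with earlier results of these data known. Named by rank were genes of at least 50 CPM: the 10 highest and 10 lowest between libraries whose interval excludes 0, the 15 highest and 10 lowest against each dendritic group by the smaller ratio, and the 15 of highest variance over mean; from the lists, the most abundant, differing and undetected members. Genes that the gates used were left out of counts. Alternatives covered the gate limits, mixed, cycling and shallow barcodes, thinning, scaling, the UMI minimum and the fold. Promoters came from RefSeq, gene positions from GENCODE M21. Python 3.11.15, numpy 2.4.6, scipy 1.17.1 and pandas 2.3.3 were used.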

Additional observations from a re-analysis of the deposited data

How the results depend on the processing

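Of the results without a count over genes, 3190 moved less than their error under the alternatives, 351 moved by more and 25 turned sign. The cDC1 share was 0.397% in library 1 with a C1q sum under 3 and 0.347% with a Cd3 sum of 0, and 0.164% in library 2 with both Xcr1 and Clec9a required and 0.180% without cycling barcodes. Genes higher in library 2 (150) were 95 with both receptors, 93 with a Cd3 sum of 0, 92 among members with Naaa and Wdfy4, 16 thinned, 477 and 2672 at minimums of 20 and 1 UMI, 524 at 1.5 times, 261 by barcode means and 59 without each gene's highest barcode. Genes lower in library 2 (78) were 44 with a C1q sum under 3, 166 without cycling barcodes, 17 thinned, 226 and 1084 at 20 and 1 UMI, 251 at 1.5 times, 147 by barcode means and 134 without the highest barcode. Genes above Cd209a DCs (93) were 24 without cycling barcodes, 9 thinned, 203 and 873 at 20 and 1 UMI, 219 at 1.5 times, 49 without the highest barcode, and 310 and 155 in library 1 and library 2 alone. Genes below Cd209a DCs (166) were 251 with both receptors, 76 without cycling barcodes, 45 thinned, 284 and 646 at 20 and 1 UMI, 373 at 1.5 times and 509 in library 1 alone. Genes above Fscn1 DCs (352) were 139 without cycling barcodes, 50 thinned, 750 and 2050 at 20 and 1 UMI, 628 at 1.5 times and 873 in library 1 alone, and those below (431) were 128 thinned, 1225 at 1 UMI and 673 in library 1 alone. Thinning and higher minimums leave fewer genes to count; for the other settings the cause was not tested.

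These log2 ratios turned sign. Between libraries, Ctsl was −2.32, −0.90 and −1.42, Ccr9 −0.48, −0.79 and −1.05, and the plasmacytoid DC list −0.50, −0.30 and −0.26, each with both receptors, without barcodes of other lineages, and among members with Naaa and Wdfy4. Samsn1 was −0.68 in the last of these, Gzma 0.14 with a Cd3 sum of 0 and H3c3 1.6 with a C1q sum under 3. The cytokine list was −0.43 and −0.10 at 20 and 1 UMI and −0.29 without the highest barcode. Without cycling barcodes, Ube2c in library 2 was −0.10 over Cd209a DCs and −1.44 over Fscn1 DCs, Pclaf −0.99 over Cd209a DCs, the cell cycle list −0.14 over Cd209a DCs in library 2 and −0.82 and −1.20 over Fscn1 DCs, and in library 2 over Fscn1 DCs the identity list was −0.24 and the chemokine receptor list −0.91. Thinned, the chemokine receptor list was −1.70 over Fscn1 DCs and the macrophage list 0.015 over Cd209a DCs, both in library 2. Scaling by the median of gene ratios moved all ratios over Fscn1 DCs in library 1 by −0.18, and barcode means moved those between libraries by −0.12 and those over Cd209a DCs in library 2 by −0.10.

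With 71 members, 1 library of each kind and no genotype per suffix, the values describe these libraries and no condition. Library 2 holds 365390 UMIs in 23 members, so genes under about 8.21 CPM cannot be told from 0 there. No paired analysis was possible because each suffix is 1 library and carries no replicate number.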

Other observations

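A pair of unnamed transcripts differed between the libraries beyond cDC1. Gm42031 stood at 128 and 16.4 CPM in cDC1, 59.3 and 11.3 in Cd209a DCs, 273 and 5.88 in Fscn1 DCs, 129 and 14.6 in C1q macrophages and 91.3 and 8.81 in T cells, so it was lower in library 2 in all 5 groups. Gm20186 stood at 17.6 and 252 CPM in cDC1 and at 112 and 243 in T cells.

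Few metabolic genes differed from the other dendritic groups, with counts not far from the shares over all genes. Of the hypoxia and glycolysis list, 2 of 11 measured were higher than in Fscn1 DCs and 0 of 15 than in Cd209a DCs, and of the cholesterol and lipid list 1 of 10 and 0 of 13, against 12.1% and 2.52% of all genes. In the same order, 0 and 2 hypoxia and glycolysis genes and 1 and 1 cholesterol and lipid genes were lower, against 14.8% and 4.5%. Ldha, which makes lactate, stood at 772 and 717 CPM in cDC1 against 224 and 170 in Fscn1 DCs and 523 and 683 in Cd209a DCs. Eno1, a glycolytic enzyme, stood at 173 and 82.1 CPM in cDC1, 355 and 167 in Cd209a DCs and 123 and 44.1 in Fscn1 DCs, and so was lower in library 2 in all 3 groups. Fdps, an enzyme of the cholesterol pathway, stood at 195 and 192 CPM in cDC1 against 79.4 and 67.6 in Fscn1 DCs and 180 and 211 in Cd209a DCs. Serpinb6b, a protease inhibitor, stood at 188 and 172 CPM in cDC1, 20.6 and 12.3 in Cd209a DCs, 1624 and 2019 in Fscn1 DCs and 200 and 253 in T cells.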
